A study of Homo sapiens with 2 samples.

Results

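The genes described here encode the enzymes of glycolysis and of the pentose phosphate pathway together with transcripts that cells make more of when oxygen is scarce. They were chosen by name from a list of 35 symbols, and a gene entered if a probe set of the array carried its symbol and no other in the platform annotation. This gave 21 genes of the 14884 named on the array, namely 9 of 20 glycolytic genes, all 3 pentose phosphate genes and 9 of 12 hypoxia-induced genes. The other 14 were not named in that annotation and are not analysed here. They are PFKP, PFKL, PFKM, PFKFB3, PFKFB4, ALDOA, ALDOC, ENO1, ENO2, PKM and PDK1 of the glycolytic genes, and CA9, P4HA1 and P4HA2 of the hypoxia-induced genes. The phosphofructokinase, aldolase, enolase and pyruvate kinase steps were therefore not seen.

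The study compared an array of A549 cells transfected with siP62, an siRNA against p62/SQSTM1, with an array of A549 cells transfected with siCONTROL, a control siRNA. A549 cells are an established line from a human lung adenocarcinoma, and RNA was taken 24 hours after transfection in either case. The siRNA sequences were not given in the sources used here. Each group held 1 array, so the differences below carry no replicate error and could not be tested.

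Glycolysis splits glucose into pyruvate in the cytosol, and lactate dehydrogenase interconverts pyruvate and lactate. The pentose phosphate pathway branches off at glucose 6-phosphate and yields NADPH and ribose 5-phosphate. When oxygen is scarce, prolyl hydroxylases no longer mark the HIF alpha subunits for VHL-dependent degradation, and HIF raises transcription through the core sequence ACGTG or GCGTG, among its targets several glycolytic genes. The protein p62 binds KEAP1, the repressor of NRF2, and NRF2 in turn drives pentose phosphate genes such as PGD, TKT and TALDO1. A549 cells carry a KEAP1 mutation and are known for high NRF2 activity.

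The promoters of 4 genes are printed to show where the HIF core stands in examples of the hypoxia-induced and glycolytic subsets. ERO1A is the member with the largest difference between the arrays. EGLN1 is a further hypoxia-induced gene, and LDHA and PGK1 are HIF-induced glycolytic genes. As deposited, their differences were within the robust SD of genes of like level, which is defined below. For EGLN1 this did not hold once the median difference of all genes was subtracted. Each stretch is from RefSeq (GRCh38.p14), runs 5′ to 3′ in the direction of the gene from 250 bases before its start to 50 bases after it, and has every ACGTG or GCGTG on either strand in capitals, so that a match on the opposite strand reads CACGT or CACGC.
ERO1A (chr14:52695509-52695808, minus strand): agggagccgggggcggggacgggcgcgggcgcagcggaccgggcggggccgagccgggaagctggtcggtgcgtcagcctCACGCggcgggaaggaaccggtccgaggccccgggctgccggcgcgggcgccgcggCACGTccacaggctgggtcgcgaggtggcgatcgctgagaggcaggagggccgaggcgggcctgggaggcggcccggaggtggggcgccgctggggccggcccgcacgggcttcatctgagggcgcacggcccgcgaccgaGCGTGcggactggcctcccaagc
EGLN1 (chr1:231422238-231422537, minus strand): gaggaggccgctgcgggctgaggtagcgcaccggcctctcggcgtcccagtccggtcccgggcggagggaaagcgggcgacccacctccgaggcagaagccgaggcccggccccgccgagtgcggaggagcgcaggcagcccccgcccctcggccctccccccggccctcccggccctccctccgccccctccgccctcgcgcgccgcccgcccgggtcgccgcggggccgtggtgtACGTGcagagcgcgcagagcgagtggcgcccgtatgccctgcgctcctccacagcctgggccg
LDHA (chr11:18394313-18394612, plus strand): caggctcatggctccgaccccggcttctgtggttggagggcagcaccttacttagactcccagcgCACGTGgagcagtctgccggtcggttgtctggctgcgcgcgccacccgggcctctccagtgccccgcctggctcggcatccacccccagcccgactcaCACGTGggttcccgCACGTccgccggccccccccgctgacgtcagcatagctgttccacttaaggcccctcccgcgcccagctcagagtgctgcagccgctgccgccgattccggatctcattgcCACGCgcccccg
PGK1 (chrX:78103998-78104297, plus strand): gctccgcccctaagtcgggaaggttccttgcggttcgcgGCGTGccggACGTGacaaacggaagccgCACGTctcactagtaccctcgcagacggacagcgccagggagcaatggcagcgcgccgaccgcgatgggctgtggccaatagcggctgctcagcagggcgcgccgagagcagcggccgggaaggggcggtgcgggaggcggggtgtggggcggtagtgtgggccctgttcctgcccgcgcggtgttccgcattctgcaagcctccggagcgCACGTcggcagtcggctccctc

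In ERO1A the core stood 170 and 114 bases before the start and again 27 bases after the first base. EGLN1 held 1 match, 13 bases before the start. LDHA had 4 separate stretches, and those 185 and 87 bases before the start were the palindrome CACGTG, in which both strands match and which is also the E-box bound by MYC and MXI1. PGK1 had matches 211, 202 and 183 bases before the start and 1 within the transcript. Of the 19 measured members with a RefSeq promoter, 12 held the core. It was found in 48.4% of all 27305 promoters of that length, and CACGTG in 7.43%. Among members past the filter described below, the differences ran from -0.61 to 0.13 in the 10 with the core and from -0.18 to 0.30 in the 6 without it, with medians of 0.035 and 0.015, so the ranges overlapped. A match describes these letters and not a bound site, and no match in this window says nothing about HIF.

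All values are log2 expression values, and a difference is the siP62 value minus the siCONTROL value. Genes were kept where at least 1 of the 2 arrays reached 5.35, the median over all named probe sets and both arrays, which left 7896 genes (53.1%). Of the 21 members, 18 were kept, each above the limit in both arrays, and HK2, ANKRD37 and EGLN3 were not. MXI1, at 5.57 in its higher array, lay nearest above the limit and ANKRD37, at 4.87, nearest below it. The kept genes had a median difference of 0.04. Their robust SD (scaled median absolute deviation) was 0.22 over all genes and between 0.15 and 0.39 in 20 bins of genes of like level. That spread is one over genes between these arrays and stands in for no replicate error. It is taken about the median of the genes, whereas the differences set beside it below are counted from 0.

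SQSTM1, the target of the siRNA, was at 7.30 in the siP62 array, against 8.64 in the siCONTROL array, which left 39.5% of the control value. In RNA of a whole culture, fewer cells with a transcript and less of it per cell cannot be told apart. Of the epithelial markers, 5 of 6 were named on the array and all 5 were kept, with differences of 0.02 to 0.21; KRT18 had the lowest of these, with 11.97 in the siP62 array, against 11.95 in the siCONTROL array. Alveolar type II markers were mostly low, with SFTPB (5.30 in siP62, 5.66 in siCONTROL) and SFTPD (5.27 in siP62, 5.85 in siCONTROL) kept through the siCONTROL array alone and the other 5 of 7 below the limit. The 3 endothelial markers named on the array and the fibroblast marker DCN lay below the limit. Of the 3 leukocyte markers named on the array, the monocyte and macrophage markers CD68 and CD14 were kept, with differences of -0.06 and -0.04. LYZ lay below the limit, with 3.06 in the siP62 array, against 3.02 in the siCONTROL array.

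The members differed little between the arrays. Over the 18 kept members the median difference was 0.02 and over all 21 measured members 0.01, against 0.04 over all kept genes, and 10 of the 18 kept members were higher in the siP62 array, 7 lower and 1 equal. Over all kept genes 55.4% were higher and 41.8% lower. After subtraction of the 0.04, 8 kept members were higher and 10 lower, and their median was -0.02, so the members had no settled direction. Only ERO1A among the kept members was lower by 1.5-fold or more (0.585 on the log2 scale), where 1.60% of all kept genes were, and 0 members were higher by that much, where 2.08% were. At 1.2-fold (0.263) 1 member, PGAM1, was higher and 1, ERO1A, lower, where 16.0% of all kept genes were higher and 10.5% lower. PGAM1 was under 1.2-fold, at 0.26, once the median difference was subtracted, and at 0.252 with a loess curve subtracted. The median size of the difference, taken without its sign, was 0.12 in the kept members and 0.15 in all kept genes. The differences of 13 kept members (72.2%) were no larger than the robust SD of their level bin, which held for 66.5% of all kept genes.

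**Figure D1:**
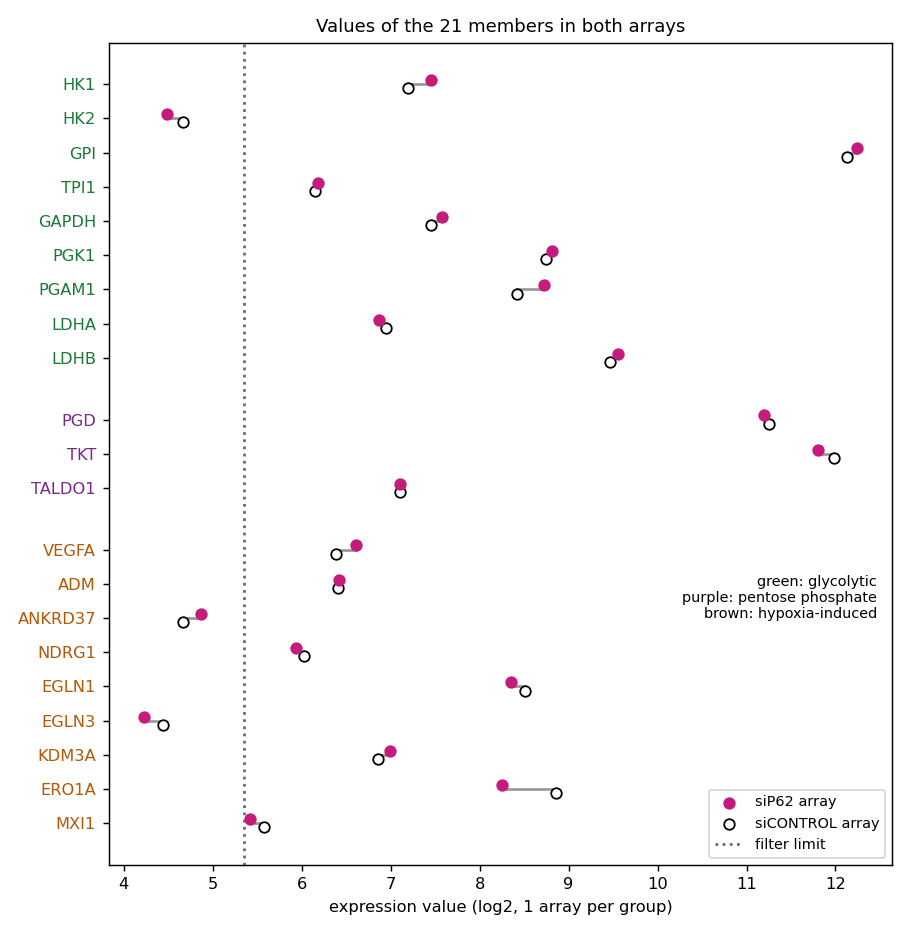
Log2 expression value (x axis) of each of the 21 members (y axis, symbols coloured by subset) in the siP62 array (filled) and the siCONTROL array (open), 1 array per group and so without error bars; the dotted line is the filter limit of 5.35. The pairs lie close together except for ERO1A, at 8.25 in siP62 and 8.86 in siCONTROL, and HK2, ANKRD37 and EGLN3 lie left of the limit in both arrays.

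The glycolytic genes had a median difference of 0.10 over 8 kept genes, 7 of them higher in the siP62 array and 1 lower. Over all kept genes the median was 0.04 and 55.4% were higher. With that 0.04 subtracted, the glycolytic median was 0.06 and TPI1 turned to -0.01. The 4 control genes named below had a median of 0.125, above the glycolytic 0.10, with 3 higher and 1 lower. HK1, the widely expressed hexokinase that phosphorylates glucose at entry, had 7.45 in the siP62 array, against 7.19 in the siCONTROL array. Its difference of 0.26 lay just under 1.2-fold and was 1.10 times the robust SD of its level bin, 0.24. With the 0.04 subtracted it was 0.22, less than that SD. HK2, the hexokinase isoform that HIF induces, went the other way, with 4.48 in the siP62 array, against 4.66 in the siCONTROL array. Both HK2 values lay below the limit, so its difference of -0.18 is not shown to be above background. GPI, which turns glucose 6-phosphate into fructose 6-phosphate, had 12.24 in the siP62 array, against 12.13 in the siCONTROL array, a difference of 0.11.

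In the lower part of glycolysis the differences were small except for PGAM1. TPI1, which interconverts the triose phosphates, had 6.18 in the siP62 array, against 6.15 in the siCONTROL array. GAPDH, the dehydrogenase that makes 1,3-bisphosphoglycerate and a common reference gene, had 7.58 in the siP62 array, against 7.45 in the siCONTROL array. The control genes HPRT1, TBP, PPIA and B2M had differences of -0.08 to 0.20 with a median of 0.125, so the 0.13 of GAPDH lay within their range. PGK1, the first ATP-yielding kinase of the pathway, had 8.81 in the siP62 array, against 8.75 in the siCONTROL array, a difference of 0.06. PGAM1, the phosphoglycerate mutase, had the highest difference of the members, 0.30 or 1.23-fold, with 8.72 in the siP62 array, against 8.42 in the siCONTROL array. That is 1.56 times the robust SD of its bin, 0.19, and 37 of the 395 genes of its bin besides PGAM1 had a difference as high or higher.

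What the PGAM1 probe set reads is uncertain. For 21 of the 22 probe sets of the members, the 10 nearest named probe sets in ID order all carried genes of the member's own chromosome in RefSeq. For PGAM1 0 of 10 did, and all 10 carried genes of a single other chromosome. RefSeq lists 13 pseudogenes named after PGAM1, 65 after GAPDH, 6 after LDHA, 4 after TPI1, 3 after LDHB and 2 after PGK1. The probes were not checked against these near-identical copies. Without PGAM1 the median of the glycolytic genes was 0.09 over 7 genes.

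The lactate dehydrogenase subunits differed in sign. LDHA, the HIF-induced subunit that favours lactate formation, had 6.87 in the siP62 array, against 6.95 in the siCONTROL array, a difference of -0.08. LDHB, the subunit of oxidative tissues, had 9.55 in the siP62 array, against 9.46 in the siCONTROL array, a difference of 0.09. Either difference was less than the robust SD of its bin, 0.25 for LDHA and 0.18 for LDHB. In this pair and in that of HK1 and HK2 the HIF-induced isoform had the lower difference. Both pairs were set together after their values were seen, and HK2 lay below the limit. PGK1, a HIF-induced glycolytic gene outside these pairs, lay on the other side of 0, at 0.06.

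**Figure D2:**
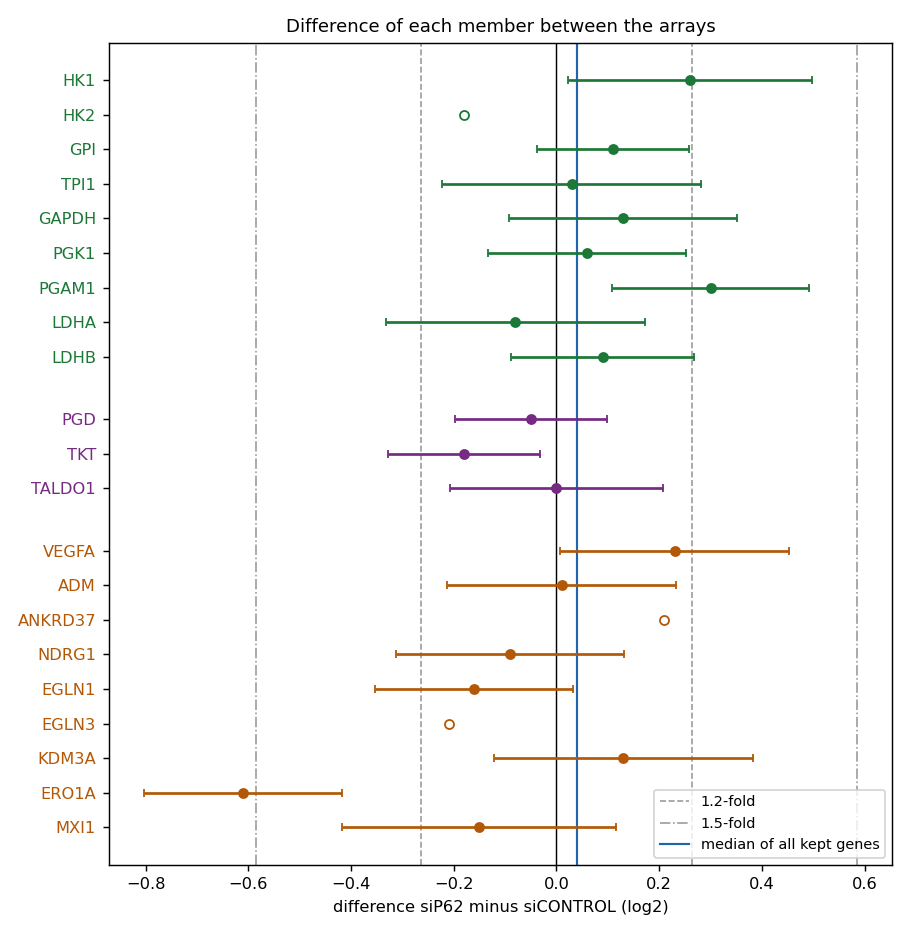
Difference siP62 minus siCONTROL on the log2 scale (x axis) for each member (y axis); filled points are kept members with a bar of 1 robust SD over genes of like level, which is no replicate error, and open points are the 3 members below the limit. Dashed and dash-dotted lines mark 1.2-fold and 1.5-fold, and ERO1A at -0.61 is the only point past 1.5-fold.

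No pentose phosphate member had a higher value in the siP62 array, where 55.4% of all kept genes had. The median difference was -0.05 over 3 genes, all of them kept. TKT, the transketolase of the non-oxidative branch, had 11.80 in the siP62 array, against 11.98 in the siCONTROL array. Its difference of -0.18 left 88.3% of the control value and was 1.21 times the robust SD of its bin, which was 0.15, and 44 of the other genes in that bin of 394 had a difference as low or lower. PGD, which oxidises 6-phosphogluconate and yields NADPH, had 11.20 in the siP62 array, against 11.25 in the siCONTROL array. TALDO1, the transaldolase, had 7.11 in both arrays. TKT, PGD and TALDO1 are also NRF2 targets. None of the 3 differed by 1.2-fold, where 16.0% of all kept genes were higher by that much and 10.5% lower. A change in NRF2 activity was not tested.

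The hypoxia-induced genes had a median difference of -0.09 over 7 kept genes, 4 of them lower in the siP62 array and 3 higher. Over all kept genes 41.8% were lower and 55.4% higher. ERO1A, the endoplasmic reticulum oxidase that reoxidises protein disulfide isomerase, had the largest difference of all members. It had 8.25 in the siP62 array, against 8.86 in the siCONTROL array, a difference of -0.61 that left 65.5% of the control value, a 1.53-fold lower value. This was 3.16 times the robust SD of its bin, 0.19, and the only member difference of more than 2 times that SD, which 8.08% of all kept genes had. Of the other 394 genes in its bin, 5 had a difference as low or lower, and of all 7896 kept genes 105 were lower. ERO1A was read by 1 probe set. Without it the median of the hypoxia-induced genes was -0.04 over 6 genes.

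The oxygen-sensing prolyl hydroxylases were both lower by small amounts. EGLN1, the main HIF prolyl hydroxylase, had 8.35 in the siP62 array, against 8.51 in the siCONTROL array. Its difference of -0.16 was within the robust SD of its bin, 0.19. Once the median difference of all genes was subtracted it was -0.20, larger than that SD. EGLN3, an isoform strongly induced by HIF, had 4.23 in the siP62 array, against 4.44 in the siCONTROL array, both below the limit. KDM3A, a histone demethylase that also uses oxygen and that HIF induces, had 6.99 in the siP62 array, against 6.86 in the siCONTROL array, a difference of 0.13.

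Among the secreted products, VEGFA, the vascular growth factor, had 6.61 in the siP62 array, against 6.38 in the siCONTROL array. Its difference of 0.23 was 1.03 times the robust SD of its bin, 0.22. Once the median difference of all genes was subtracted it was 0.19, less than that SD. ADM, the precursor of the vasodilator adrenomedullin, had 6.42 in the siP62 array, against 6.41 in the siCONTROL array. VEGFA thus lay on the other side of 0 from ERO1A and EGLN1, while ADM lay at 0.01 and turned to -0.03 once the median difference of all genes was subtracted.

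Of the remaining hypoxia-induced genes, NDRG1, a stress-responsive gene used as a hypoxia marker, had 5.93 in the siP62 array, against 6.02 in the siCONTROL array. ANKRD37, an ankyrin repeat gene induced by HIF, had 4.87 in the siP62 array, against 4.66 in the siCONTROL array, below the limit. MXI1, an antagonist of MYC, was the only member with 2 probe sets, annotated to different RefSeq transcripts. The set that stood for the gene had 5.42 in the siP62 array, against 5.57 in the siCONTROL array, a difference of -0.15. The other set, below the limit in both arrays, had 4.93 in the siP62 array, against 4.62 in the siCONTROL array, a difference of 0.31, and the mean of both sets gave 0.08. MXI1 therefore has no settled direction.

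**Figure D3:**
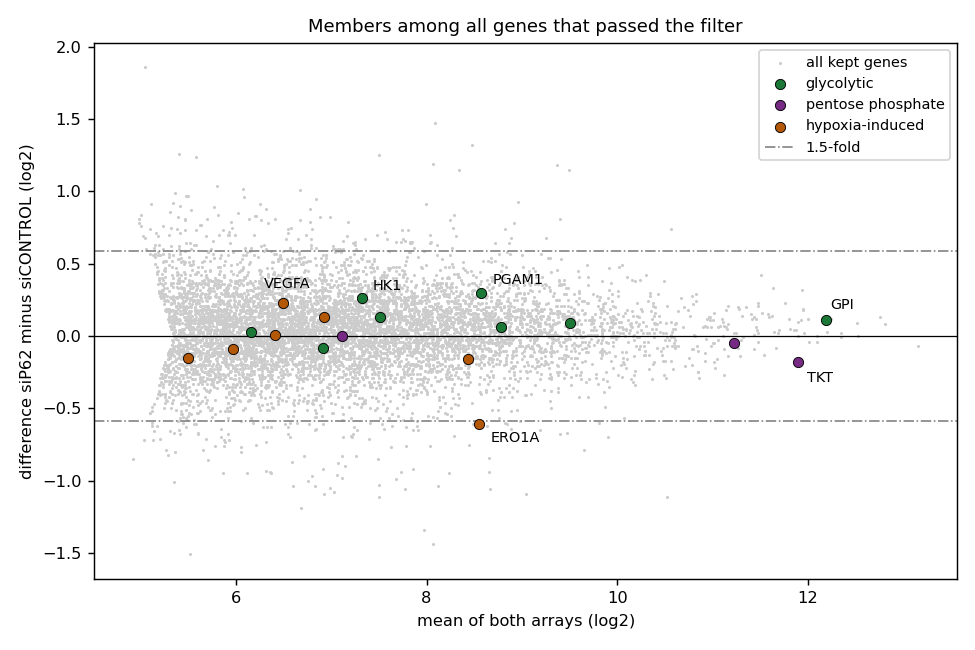
Difference siP62 minus siCONTROL (y axis, log2) against the mean of both arrays (x axis, log2) for all 7896 kept genes (grey) and the 18 kept members (coloured by subset); dash-dotted lines mark 1.5-fold. Apart from ERO1A at -0.61, the members lie between -0.18 and 0.30, inside the cloud of all genes.

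Set side by side, the glycolytic genes had a median difference 0.19 above that of the hypoxia-induced genes and 0.15 above that of the pentose phosphate genes. The ranges overlapped, from -0.08 to 0.30 for the glycolytic genes, from -0.18 to 0.00 for the pentose phosphate genes and from -0.61 to 0.23 for the hypoxia-induced genes. With 1 array per group these distances could not be tested.

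Lists of further genes of the same pathways were set beside the members. Over all kept genes the median difference was 0.04, with 55.4% higher and 41.8% lower in the siP62 array. By 1.5-fold or more, 2.08% of all kept genes were higher and 1.60% lower. Of 17 other pentose phosphate and NADPH genes listed, 9 were named on the array and 7 kept, of which 6 were higher in the siP62 array and 1 lower, with a median of 0.19. RPIA, which isomerises ribose 5-phosphate, had 7.15 in the siP62 array, against 6.54 in the siCONTROL array, a difference of 0.61, and was the only one of them at 1.5-fold or more; it was under 1.5-fold once the median difference of all genes was subtracted and after quantile normalization. PRPS2, which turns ribose 5-phosphate into the nucleotide precursor PRPP, had 9.63 in the siP62 array, against 9.30 in the siCONTROL array. The lowest were RPE, the ribulose phosphate epimerase, at 0.01 and PRPS1 at -0.03.

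Of 40 other glycolysis genes, among them transporters and enzymes of pyruvate entry into mitochondria, 19 were named and 14 kept. Of these 14, 10 were lower in the siP62 array and 4 higher, with a median of -0.07. Over all kept genes 41.8% were lower and the median was 0.04. None of the 14 differed by 1.5-fold, where 2.08% of all kept genes were higher by that much and 1.60% lower. GPD2, the mitochondrial glycerol phosphate dehydrogenase, had 9.13 in the siP62 array, against 8.83 in the siCONTROL array. The pyruvate carboxylase gene PC had 7.49 in the siP62 array, against 7.80 in the siCONTROL array. DLAT, a subunit of the pyruvate dehydrogenase complex, had a difference of 0.13 and LDHD, a D-lactate dehydrogenase, one of -0.20.

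Of 42 other hypoxia response genes, 26 were named and 22 kept, of which 14 were lower in the siP62 array and 8 higher. Over all kept genes 41.8% were lower and 55.4% higher. The list had a median of -0.09, against 0.04 over all kept genes. The hypoxia-induced members had -0.09 too, but -0.04 without ERO1A. By 1.2-fold or more, 6 of the 22 listed genes were lower and 3 higher, where 10.5% of all kept genes were lower and 16.0% higher. The list also holds genes of the HIF machinery, such as EPAS1 and ARNT. ANGPTL4, a secreted inhibitor of lipoprotein lipase, had 6.14 in the siP62 array, against 6.64 in the siCONTROL array, and the heme oxygenase HMOX1 had a difference of -0.38. On the other side, HILPDA, a lipid droplet protein induced by HIF, had 7.38 in the siP62 array, against 6.89 in the siCONTROL array. TMEM45A had 5.71 in the siP62 array, against 5.12 in the siCONTROL array. It was the only gene of the 22 at 1.5-fold or more, where 2.08% of all kept genes were higher by that much. TMEM45A was kept through the siP62 array alone and was under 1.5-fold once the median difference was subtracted. EPAS1, the HIF2 alpha subunit itself, had 10.21 in the siP62 array, against 10.51 in the siCONTROL array, a difference of -0.30 against a robust SD of 0.15 in its bin. Its partner ARNT had 9.05 in the siP62 array, against 9.06 in the siCONTROL array. EPAS1 and ARNT were named after their values were seen. HIF1A was not named in the annotation and is not analysed here.

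**Figure D4:**
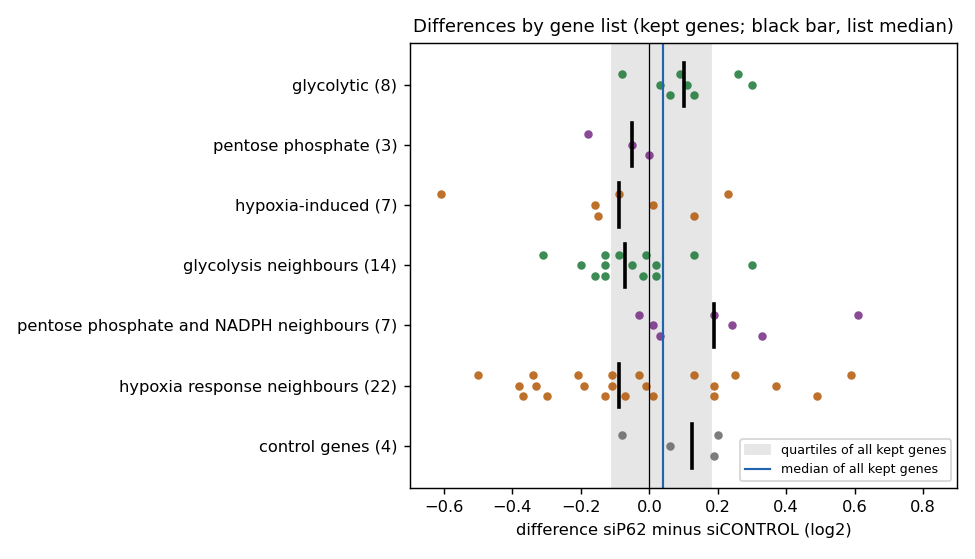
Differences siP62 minus siCONTROL (x axis, log2) of the kept genes of the 3 member subsets, the 3 lists of further pathway genes and the control genes (y axis, number of genes in brackets); each point is a gene, a black bar is the median of a list, the grey band spans the quartiles of all kept genes and the blue line is their median of 0.04. The medians run from -0.09 for both hypoxia lists to 0.19 for the further pentose phosphate genes, and the points of all lists overlap.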

How the data were processed

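Gene expression was read in 2 samples, 1 Affymetrix whole-transcript array for siP62 and 1 for siCONTROL, from 100 ng of total RNA each, per the labels' protocols. The deposited values are on a log2 scale, for 48226 probe sets on each array, and the submitters' processing notes name RMA and Transcriptome Analysis Console 4.0.2.15. RMA as commonly defined makes the distributions of arrays alike, so a shift of all genes in the same direction would not be seen. The genome build of the probe sets was not given in the sources used here.

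Genes were named from the platform annotation, which gave 1 symbol for 16098 probe sets. The probe set with the highest mean stood for a gene. The siP62 value minus the siCONTROL value was set beside the robust SD of its level bin. With 1 array per group, genes were counted past a fold and no test was run. The alternatives were subtraction of the median difference or of a loess curve (span 0.3), quantile normalization, the mean over probe sets, and other filters, in Python 3.11.15 with pandas 2.3.3 and statsmodels 0.14.6. The procedure was tested on simulated data in which the noise was smaller than the spread between these arrays. That run does not show how reliable the counts here are. The members and all lists were chosen with earlier results of these data known. All members on the array are named. Of each further list, genes past 1.5-fold and the highest and lowest differences are named. The number of arrays limits the precision.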

Additional observations from a re-analysis of the deposited data

Results flagged for a closer look

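A further probe set of MXI1, which did not stand for the gene but entered the mean over probe sets, had 4.93 in the siP62 array, against 4.62 in the siCONTROL array, a difference of 0.31. It drew attention as a signal above the control array outside the probe sets that stood for the genes, and its sign is opposite to that of the probe set used. Both values lie below the filter limit of 5.35.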

How the results depend on the processing

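Of the 84 values of single members under other scalings or the mean over probe sets, 5 changed sign, all in genes under 1.2-fold, namely TPI1, ADM and MXI1. The median of the kept members, 0.02 as deposited, was -0.02 with the median difference subtracted, -0.0091 with a loess curve subtracted and -0.0075 after quantile normalization, so it has no settled sign. The subset medians kept their sign under the alternatives run. They ranged from 0.051 to 0.11 for the glycolytic genes, from -0.09 to -0.043 for the pentose phosphate genes and from -0.16 to -0.04 for the hypoxia-induced genes. The distance between the glycolytic and hypoxia-induced medians ranged from 0.14 to 0.27. Both the -0.16 and the 0.27 came with the filter at the 70th percentile, which left 3 hypoxia-induced genes in place of 7. ERO1A stayed at 1.5-fold or more in each setting, whereas the count of members higher by 1.2-fold was 0 in place of 1 after subtraction of the median difference or of the loess curve. The count of further pentose phosphate genes higher by 1.5-fold was 0 in place of 1 after either subtraction or quantile normalization. That of further hypoxia genes was 0 in place of 1 after either subtraction or with the filter at the 70th percentile. Over all genes, 305 were higher and 318 lower by 1.5-fold without a filter and 85 and 82 with the filter at the 70th percentile, against 164 and 126, since the number of genes counted changes. Leaving out PGAM1 or ERO1A was chosen after seeing the data. No paired analysis was possible because each group held 1 array.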
